A study of Mus musculus with 24 samples.

Results

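Mitosis and chromosome segregation genes were examined in the ovary of 2 mouse lines, FL1 and DUKsi. The genes were chosen by name as 38 symbols that carry a cell from the entry into mitosis to the separation of the daughter cells, and all probe sets annotated to these symbols were collected. A probe set is a group of short oligonucleotides on the array that together measure a transcript. Of the 38 genes, 36 had at least 1 probe set annotated to that gene alone, with 70 such probe sets in all, out of 12393 genes and 22626 probe sets that were tested. No probe set was annotated to Ccnb1 or Espl1, which encode cyclin B1 and separase, and these genes were not analysed here. Each gene was described by its probe set with the highest mean signal, called its brightest probe set. The other 34 probe sets are summarized together, and those of several genes are also given singly.

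FL1 is a line selected over many generations for an index of litter size and litter weight at birth. DUKsi is an unselected control that was inbred by full-sib mating and goes back to the same genetic pool as FL1. Ovaries were taken at metestrus, the stage after ovulation, from virgin females aged 6 to 9 weeks, with 30 animals per line in 6 pools (the sample labels give 6 animals per pool, whereas 30 animals in 6 pools make 5). Each pool was hybridized to 2 MOE 430A arrays, whose signals were averaged, so that 6 FL1 pools were compared with 6 DUKsi pools. No treatment was given. Only the control is described as inbred, so that selection and inbreeding cannot be told apart. The values are linear MAS5 signals, which the authors had brought to the same average on each array before deposit.

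Mitosis begins when the kinase Cdk1 with its B cyclins is switched on, and the spindle checkpoint then delays anaphase until every kinetochore is attached. The anaphase-promoting complex, activated by Cdc20, next marks securin and the B cyclins for destruction, which frees separase to cut the cohesin that ties sister chromatids. In the ovary, dividing granulosa cells of growing follicles use these genes, cells that luteinize leave the cell cycle, and oocytes use many of them in meiosis, so that whole-ovary RNA mixes all these sources. In such bulk tissue fewer cells of a type and less RNA per cell cannot be told apart.

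Many genes of late cell cycle phases share short promoter motifs, the CCAAT box and the element TTTGAA of the cell cycle genes homology region. Promoter sequences of RefSeq (GRCm38.p6) were found for 28 of the 36 measured genes. The 250 bases before the first listed start of each gene were searched for CCAAT and TTTGAA on both strands. Matches that share a base were both counted, and other starts and bases after the start were not searched. The genes without an entry were Aurkb, Ccna2, Cdc25c, Foxm1, Incenp, Kif20a, Smc4 and Tpx2. A CCAAT box was present in 23 of 28 (82.1%, against 34.5% of 27025 promoters of all genes) and TTTGAA in 12 of 28 (42.9%, against 16.3%). Both were present in 11 (39.3%, against 5.73%). At least 2 CCAAT boxes stood in 14 (50%, against 10.5%), and neither motif stood in 4 (14.3%, against 55%), which were Birc5, Mad2l1, Nusap1 and Pttg1. A match is a description of the letters and not a measured binding site.

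The 120 bases directly before the start are shown for 6 genes, with the motifs in capitals. A CCAAT box on the other strand reads as ATTGG. Likewise the element TTTGAA on the other strand reads as TTCAAA. Cdk1 (chr10:69352913-69353032, minus strand), Cdc20 (chr4:118437344-118437463, minus strand), Top2a (chr11:99024190-99024309, minus strand) and Kif11 (chr19:37376262-37376381, plus strand) are shown as members with both motifs. Cenpe (chr3:135212443-135212562, plus strand) and Pttg1 (chr11:43425982-43426101, minus strand) are shown because their signals did not overlap between the lines.
Cdk1: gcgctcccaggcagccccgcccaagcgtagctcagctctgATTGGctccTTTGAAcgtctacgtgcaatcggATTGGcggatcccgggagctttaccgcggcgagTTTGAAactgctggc
Cdc20: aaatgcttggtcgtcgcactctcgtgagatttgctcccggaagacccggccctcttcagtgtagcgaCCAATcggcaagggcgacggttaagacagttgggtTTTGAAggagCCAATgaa
Top2a: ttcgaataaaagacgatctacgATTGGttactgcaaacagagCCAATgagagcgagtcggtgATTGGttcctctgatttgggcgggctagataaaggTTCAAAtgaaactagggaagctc
Kif11: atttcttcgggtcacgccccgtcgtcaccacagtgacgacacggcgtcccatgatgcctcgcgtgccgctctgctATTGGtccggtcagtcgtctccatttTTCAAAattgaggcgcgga
Cenpe: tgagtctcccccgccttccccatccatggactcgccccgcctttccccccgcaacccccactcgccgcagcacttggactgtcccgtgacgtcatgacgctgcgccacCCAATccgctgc
Pttg1: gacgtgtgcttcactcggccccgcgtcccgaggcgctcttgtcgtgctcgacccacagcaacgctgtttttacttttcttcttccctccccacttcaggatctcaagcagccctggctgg
In these windows Top2a, the DNA topoisomerase that disentangles sister chromatids, held CCAAT boxes on both strands, and Cdk1 held TTTGAA at 15 to 10 bases before the start. Kif11 had a reverse CCAAT box at 45 to 41 bases and TTCAAA at 19 to 14 bases. Cenpe held 1 CCAAT box, at 12 to 8 bases, and the Pttg1 window held no capitals.

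Among the mitosis genes 1 was lower in FL1, Pttg1, which encodes securin, the inhibitor of separase. No member was higher, and 35 did neither at an adjusted p under 0.01. The test was limma across all probe sets with Benjamini-Hochberg adjustment over all 22626. In the same comparison 1.65% of all 12393 genes were lower by their brightest probe set and 2.08% were higher, which for 36 genes amounts to less than 1 gene in either direction. At an adjusted p under 0.05 from limma 2 members were lower, Pttg1 and Cenpe, and 0 higher, against 3.32% and 4.09% of all genes. At an unadjusted p under 0.05 from limma 7 members were lower and 0 higher, against 10.6% and 9.92% of all genes.

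The median log2 fold change of the 36 genes was -0.12, against -0.048 over all genes and -0.069 over all probe sets. The fold change was negative in 28 members (77.8%, against 58.9% of all genes) and positive in 8. With the arrays scaled to the same median it was negative in 20 members (55.6%, against 43% of all genes), and with quantile normalization in 28 (against 51.2%). Signs of this kind are a description, since many mitosis genes can move together within a pool. With the arrays scaled to the same median, the median was -0.028 for the members, 0.040 for all genes and 0.018 for all probe sets. Without DUKsi pool 2 it was -0.069 for the members and -0.072 for all probe sets, and a median over all genes was not computed there. For the 35 members other than Pttg1 the 95% interval lay within 1.5-fold either way in 31 and within 2-fold in 35. Its half-width ran from 0.117 to 0.525 on the log2 scale, with a median of 0.231.

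**Figure D1:**
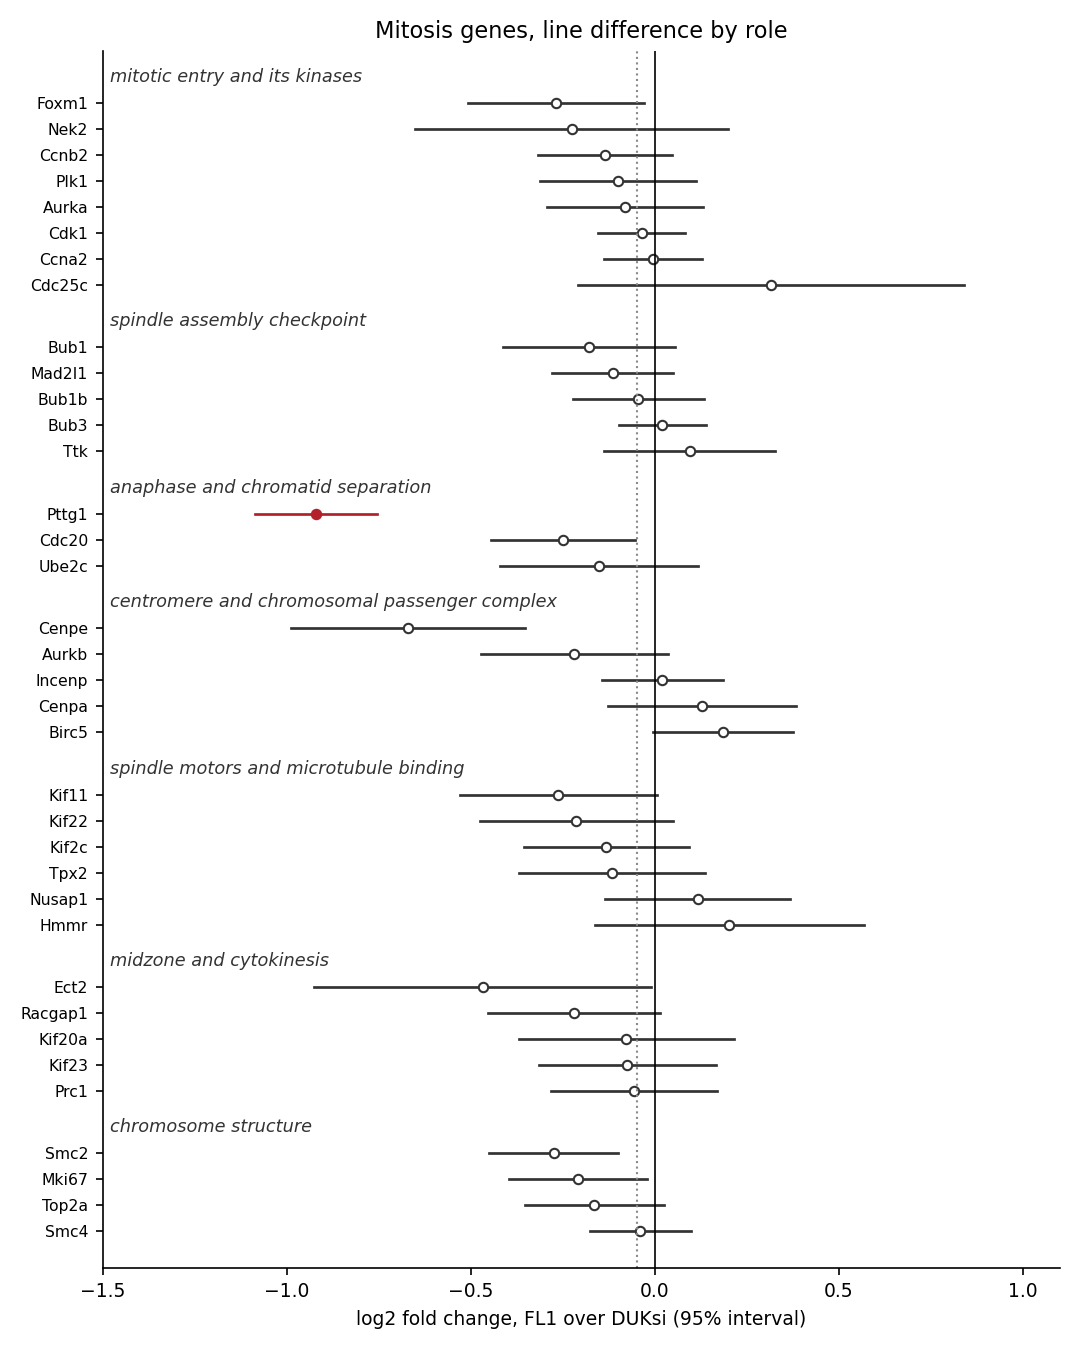
Log2 fold change of FL1 over DUKsi (x axis) of the brightest probe set of 36 mitosis genes (y axis, grouped by role), with 95% intervals from limma over 6 pools per line; the filled red point passed at an adjusted p under 0.01, open points did not, and the dotted line is the median of all genes, -0.048. Pttg1 lies at -0.92 and Cenpe at -0.67, while the other members lie between -0.47 and 0.32.

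Pttg1 (probe set 1438390_s_at) had signals of 3686, 3666, 4235, 3936, 4247 and 4867 in FL1 pools 1 to 6. They were 7110.1, 8882, 8096, 7288, 7441 and 7698 in DUKsi pools 1 to 6. Every FL1 pool lay below every DUKsi pool, and the highest of the 12 single FL1 arrays, 4930, was below the lowest of the 12 DUKsi arrays, 6889. The means were 4106 ± 450.2 for FL1 against 7753 ± 652 for DUKsi (mean ± SD over 6 pools per line; log2 fold change -0.92 with an SE of 0.0777, limma adjusted p = 1.65e-06), so that FL1 had 0.53 times the DUKsi signal. Of all probe sets 1.55% were lower and 1.83% higher at this threshold, 1.07% were lower with a ratio of at least 1.5, and 2.39% had every FL1 pool below every DUKsi pool.

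The other probe sets of Pttg1 did not show a difference of this size. Probe set 1424105_a_at had 1077, 925, 1189, 1159, 1111 and 1062 in FL1 pools 1 to 6. It had 1253, 1295, 1089, 1105, 1344 and 1432 in DUKsi pools 1 to 6. The lines overlapped, with 3 FL1 pools below the lowest DUKsi pool (means 1087 ± 93.0 for FL1 against 1253 ± 135 for DUKsi; log2 fold change -0.20 with an SE of 0.0827, limma adjusted p = 0.179). The dimmest one, 1419620_at, ranged from 95.05 to 161 in FL1 and from 72.5 to 153 in DUKsi (log2 fold change 0.18, adjusted p = 0.69). By the array maker's naming, the ending _s_at marks probes shared by several transcripts, _a_at probes shared by transcripts of 1 gene, and _at probes of a single transcript. The mean of log2 signals over all 3 came to -0.32 between the lines (adjusted p = 0.0144 from limma), which did not pass. Of the 3 probe sets of Pttg1 only the brightest passed.

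**Figure D2:**
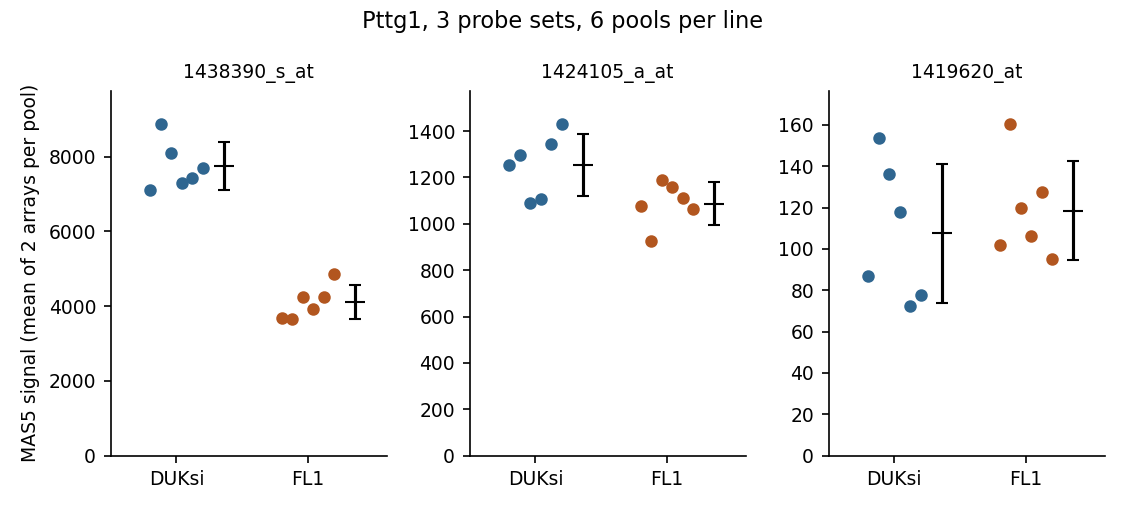
MAS5 signal (y axis, linear from 0) of the 3 probe sets of Pttg1 in the 6 pools of each line; points are pools, the mean of 2 arrays, and the bar is mean ± SD. The lines are apart in the first panel, 3666 to 4867 against 7110.1 to 8882, and overlap in the other panels.

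Cdc20, the activator of the anaphase-promoting complex, and Ube2c, its ubiquitin-conjugating enzyme, are the other measured genes of anaphase and chromatid separation. Cdc20 had 1027, 865, 1186, 1014, 940.2 and 1119 in FL1 pools 1 to 6. It had 1026, 1432, 1178, 1159.7, 1332 and 1189 in DUKsi pools 1 to 6. The lines overlapped, although the FL1 pool was the lower one in 31 of 36 cross-line pairings (log2 fold change -0.25, adjusted p = 0.129 from limma). Its second probe set had -0.091. Ube2c ranged from 932 to 1545 (median 1121) in FL1 and from 1039.7 to 1719.5 (median 1258) in DUKsi (log2 fold change -0.15, 95% interval -0.42 to 0.12). The median of the 3 genes was -0.25, with 1 lower and 0 higher.

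Cenpe, the kinesin motor that brings chromosomes to the spindle equator, was the other member whose lines did not overlap. Its single probe set had 85.0, 101, 86.2, 65.2, 84.5 and 101 in FL1 pools 1 to 6. It had 144, 149.9, 138, 118, 146 and 131 in DUKsi pools 1 to 6. The highest FL1 pool, 101.3, lay under the lowest DUKsi pool, 118. The means were 87.2 ± 13.2 for FL1 against 138 ± 11.7 for DUKsi (mean ± SD over 6 pools per line; log2 fold change -0.67 with an SE of 0.149, limma adjusted p = 0.0113), just outside the threshold. Separation of this kind was found in 2 of 36 members and in 2.33% of all genes. Cenpe passed in 8 of the 29 other settings tried, among them the looser threshold of 0.05, the methods' t-test on linear signals (adjusted p = 0.00311) and a random pool effect over the 24 single arrays (0.0014), and its adjusted p ran from 0.0014 to 0.119 over these settings. Its signal is low, and the first array of each pool alone gave the highest of these values. The random pool effect was fitted with the same correlation between the arrays of a pool, 0.337, for all probe sets.

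The other centromere and passenger genes lay on both sides of 0. Aurkb, the kinase of the chromosomal passenger complex, had a log2 fold change of -0.22 (95% interval -0.47 to 0.035) and its scaffold Incenp 0.02 (-0.14 to 0.19). Dimmer probe sets of Incenp had -0.017 and -0.16, and that of Aurkb had -0.23. Birc5, the passenger subunit survivin, ranged from 858 to 1202 (median 1023) in FL1 and from 752 to 979 (median 932) in DUKsi (log2 fold change 0.18, adjusted p = 0.269 from limma). Cenpa, the histone that marks centromeres, had 0.13 (-0.13 to 0.38). Within this group the median was 0.02, with 0 of 5 passing.

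Of the 8 measured genes of mitotic entry and its kinases none passed, and their median was -0.091. Foxm1, the transcription factor of late cell cycle genes, had 518, 451, 745, 591, 599 and 551 in FL1 pools 1 to 6. It had 704, 687, 601, 605, 718 and 823 in DUKsi pools 1 to 6. Of the FL1 pools 5 were below the lowest DUKsi pool and pool 3 was inside the DUKsi range (log2 fold change -0.27, adjusted p = 0.191 from limma).

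Cdk1, the kinase that drives entry, ranged from 1634 to 1803 (median 1785) in FL1 and from 1706 to 1936 (median 1768) in DUKsi. Its log2 fold change was -0.036 with a 95% interval of -0.15 to 0.082. Cyclin genes lay close by, with Ccna2 at -0.0045 (-0.14 to 0.13) and Ccnb2 at -0.14 (-0.32 to 0.047). All 3 intervals held 0. The centrosome and spindle kinase genes Plk1 (-0.10), Aurka (-0.081) and Nek2 (-0.23) had negative values, and the Cdk1-activating phosphatase gene Cdc25c had 0.32 (95% interval -0.21 to 0.84), at means of only 72.6 and 59.6.

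The spindle assembly checkpoint genes, which delay anaphase while a kinetochore is unattached, had a median of -0.046, and none of 5 passed. Bub3, a kinetochore adaptor, had 0.021 (95% interval -0.097 to 0.14) and the kinase gene Bub1b -0.046 (-0.22 to 0.13). The dimmer probe sets of Bub3 had -0.20 (-0.36 to -0.047, adjusted p = 0.123 from limma), -0.053 and -0.51. Mean signals behind -0.053 and -0.51 were only 55.4 and 24.8, and the interval of -0.51 was -1.34 to 0.32. Bub1, a kinase that recruits the checkpoint, had -0.18 (-0.41 to 0.054). Mad2l1, which encodes the Cdc20 inhibitor MAD2, had -0.11 (-0.28 to 0.05). Ttk, the kinase MPS1, had 0.094 (-0.14 to 0.33). In the brightest probe sets the values of this group ran from -0.18 to 0.094.

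The spindle motors and microtubule binding genes had a median of -0.12, and 0 of 6 passed. Kif11, the motor that pushes spindle poles apart, had 439.8, 300.2, 359, 341, 361 and 298 in FL1 pools 1 to 6. It had 433, 522, 439, 314, 438 and 379 in DUKsi pools 1 to 6. FL1 pool 1 and DUKsi pool 4 kept the lines overlapping (log2 fold change -0.26, adjusted p = 0.262 from limma). Its other probe sets pointed the same way, at -0.38 (adjusted p = 0.0399) and -0.39 (adjusted p = 0.16).

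Kif22, a chromosome-arm motor, ranged from 775 to 1370.3 (median 1075) in FL1 and from 953 to 1342 (median 1238) in DUKsi (log2 fold change -0.21, adjusted p = 0.364 from limma). Its dimmer probe sets had -0.057 and -0.42. Kif2c, a microtubule-shortening kinesin, had -0.13 and Tpx2, an activator of Aurka, -0.12. Dimmer probe sets of Kif2c had -0.21, -0.28 and -0.20, and that of Tpx2 had -0.028. The microtubule binders Hmmr and Nusap1 were positive, at 0.20 and 0.12 in their brightest probe sets. The 3 dimmer probe sets of Hmmr had -0.47 (adjusted p = 0.0616), -0.24 and 0.024, and that of Nusap1 had -0.60 (adjusted p = 0.104).

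All 5 midzone and cytokinesis genes had negative values (median -0.078), although Kif20a, Kif23 and Prc1 were positive with the arrays scaled to the same median, and none passed. Ect2, which switches on RhoA for the cleavage furrow, had 160.3, 127, 348, 319, 260.3 and 260.2 in FL1 pools 1 to 6. It had 397, 334, 272, 276, 309 and 349 in DUKsi pools 1 to 6. FL1 pools 1 and 2 were far below the others while pools 3 and 4 lay in the DUKsi range. The log2 fold change was -0.47 (adjusted p = 0.241 from limma). Without FL1 pool 2 it was -0.29. Racgap1, a partner of Ect2, had -0.22, the motor genes Kif20a and Kif23 had -0.078 and -0.075, and Prc1, which bundles midzone microtubules, had -0.057.

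The 4 chromosome structure genes were also all negative, Smc4 not so with the arrays scaled to the same median, with a median of -0.19, and none passed. Smc2, a core subunit of condensin, had 662, 736, 822, 806, 766 and 759 in FL1 pools 1 to 6. It had 973, 962, 957, 734, 928 and 964 in DUKsi pools 1 to 6. DUKsi pool 4 fell within the FL1 range and the other DUKsi pools lay above it. The log2 fold change was -0.27 (adjusted p = 0.0593 from limma). Without DUKsi pool 4 it was -0.34 (adjusted p = 0.00821), which passed, and the adjusted p ran from 0.00448 to 0.272 over all settings.

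Mki67, the proliferation marker Ki-67 that coats mitotic chromosomes, had 1397, 1139, 1394, 1283, 1155 and 1242 in FL1 pools 1 to 6. It had 1369, 1822, 1517, 1265, 1361 and 1493 in DUKsi pools 1 to 6. The lines overlapped (log2 fold change -0.21, adjusted p = 0.191 from limma). Top2a ranged from 1484 to 2072 (median 1890.2) in FL1 and from 1804 to 2370.5 (median 2132) in DUKsi (log2 fold change -0.16, 95% interval -0.35 to 0.024). Smc4, the partner of Smc2 in condensin, had -0.039 in its brightest probe set (-0.18 to 0.098). Its dimmer probe sets had -0.52 (adjusted p = 0.0321) and -0.37 (adjusted p = 0.139).

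Several genes had probe sets with unlike values. Of the 70 probe sets 1 passed at an adjusted p under 0.01 and 4 at under 0.05, those of Pttg1, Cenpe, Kif11 and Smc4 given above, all lower in FL1. At the latter threshold 3.42% of all probe sets were lower and 3.5% higher. Of the 34 other probe sets 5 were dim, with a mean under 48.4, below which 20% of all signals lie. The remaining 29 were more negative than the brightest in 18 cases (62.1%), with a median difference of -0.072. Among all genes with several probe sets this held for 63.9% of 6267, with a median difference of -0.081. For Pttg1, Foxm1 and Bub1 a dimmer probe set was positive while the brightest was negative, at 0.18 for Pttg1, 0.27 for Foxm1 and 0.40 for Bub1. Mean signals of these probe sets were only 113, 51.3 and 64.3, and the 95% interval of the Foxm1 value was -0.90 to 1.43. A brighter probe set of Foxm1, 1417748_x_at, had -0.21. The brightest probe sets of Cdc20, Aurkb, Incenp, Kif22 and Kif2c end in _x_at, which marks probes that can also match other sequences.

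**Figure D3:**
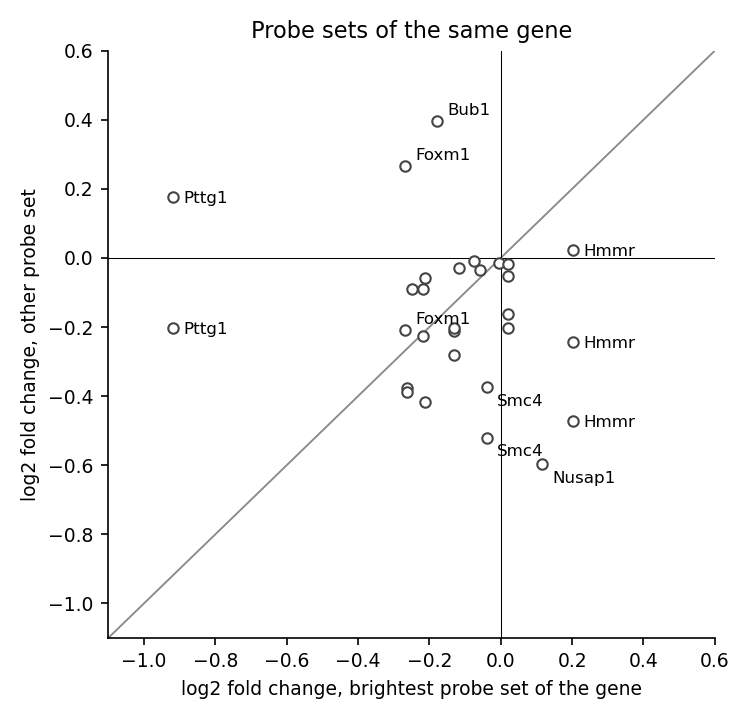
Log2 fold change (FL1 over DUKsi) of each of 29 other probe sets that were not dim (y axis) against the brightest probe set of the same gene (x axis); the diagonal marks equal values. Points of Smc4, Hmmr and Nusap1 lie below it, at -0.60 to 0.02, and those of Pttg1 and Bub1 and 1 of Foxm1 lie well above it.

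Within a line many mitosis genes shifted together in some pools, most clearly in FL1 pool 2 and DUKsi pools 2 and 4. The median deviation of the 36 genes from the mean of their own line was 0.07, -0.17, 0.054, 0.023, -0.024 and -0.013 in FL1 pools 1 to 6. It was -0.02, 0.17, 0.035, -0.18, -0.0058 and 0.04 in DUKsi pools 1 to 6. FL1 pool 2 was the lowest of its line for 20 members and DUKsi pool 4 for 21. DUKsi pool 2 was the highest for 23 members and FL1 pool 1 for 15. Over all genes the same medians ran from -0.056 to 0.104. The highest was in FL1 pool 3, above the 0.054 of the members there. The median SD of a member between pools was 0.199 in FL1 and 0.169 in DUKsi on the log2 scale, against 0.245 and 0.201 over all genes.

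DUKsi pools 2 and 4 also differed in other lists. In pool 2 the median deviation was 0.12 for DNA replication genes, 0.12 for other mitotic genes, 0.043 for granulosa cell markers and -0.25 for luteal cell markers. In pool 4 it was -0.15, -0.14, -0.16 and 0.24. Endothelial and macrophage markers of pool 4 had 0.22 and 0.29. The largest deviations of the luteal markers were in other DUKsi pools, -0.66 in pool 5 and 0.41 in pool 1, where the median of the mitosis genes was near 0. In FL1 pool 2 the values were -0.058 for DNA replication genes, -0.069 for other mitotic genes and -0.038 for granulosa cell markers, and oocyte markers had -0.24. The part of these shifts in the line difference was not tested beyond leaving out single pools, and FL1 pool 3 and DUKsi pool 4 together.

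**Figure D4:**
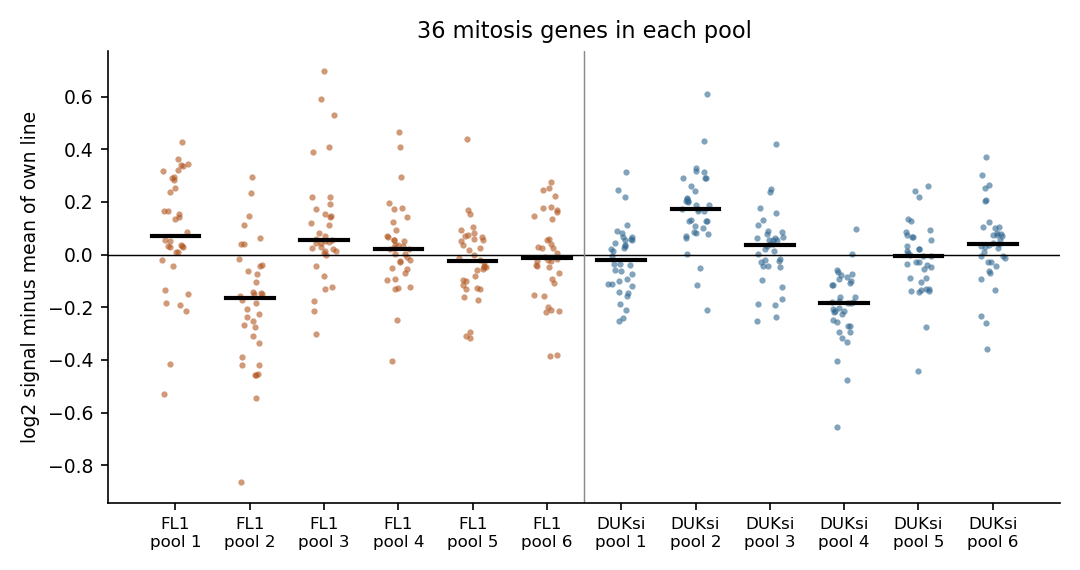
Log2 signal of each of 36 mitosis genes minus the mean of its own line (y axis) in the 6 FL1 and 6 DUKsi pools (x axis); points are genes and black bars the median. FL1 pool 2 (-0.17) and DUKsi pool 4 (-0.18) lie low and DUKsi pool 2 (0.17) lies high.

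Genes that work beside the members were measured for comparison. Of all genes 1.65% were lower and 2.08% higher at an adjusted p under 0.01 from limma. At an unadjusted p under 0.05 from limma the shares were 10.6% and 9.92%. Of 23 other kinetochore and centromere genes 1 was lower in FL1 and 0 were higher, with a median of -0.12. It was Mis18a, which helps to load Cenpa, at 380.3 ± 69.7 for FL1 against 546 ± 45.4 for DUKsi (log2 fold change -0.54 with an SE of 0.112, limma adjusted p = 0.00731). At an unadjusted p under 0.05 from limma 4 were lower and 3 higher. Cenpk, a subunit of the inner kinetochore that was named after its values were seen, did not pass (359 ± 61.0 for FL1 against 238 ± 43.3 for DUKsi; log2 fold change 0.60 with an SE of 0.143, limma adjusted p = 0.0179). Of 15 genes of the anaphase-promoting complex 1 was lower and 0 higher (median -0.046, or 0.041 with the arrays scaled to the same median). It was Cdc27, a core subunit, at 66.5 ± 19.5 for FL1 against 126 ± 26.4 for DUKsi (log2 fold change -0.94 with an SE of 0.206, limma adjusted p = 0.0099). The other 14 genes of the complex did not pass. The calls of Mis18a and Cdc27 lay near the threshold: over the other settings Mis18a passed in 10 of 28 (adjusted p from 0.000172 to 0.052) and Cdc27 in 6 of 27 (0.00246 to 0.196), and leaving out single pools gave adjusted p-values of 0.00105 to 0.0223 and 0.00246 to 0.0295.

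Of 14 cohesin and other condensin genes 1 was higher, Ncapg2, a subunit of condensin II, at 315 ± 43.7 for FL1 against 172 ± 20.2 for DUKsi (log2 fold change 0.87 with an SE of 0.122, limma adjusted p = 0.000279). It passed in all 28 other settings. None was lower, also by the methods' t-test, and at an unadjusted p under 0.05 from limma 1 was lower and 3 were higher. The median was -0.05, or 0.038 with the arrays scaled to the same median. Of 34 other mitotic genes 0 passed in limma or in the methods' t-test (median -0.12), and at an unadjusted p under 0.05 from limma 6 were lower and 0 higher. Stmn1, a microtubule destabilizer and the brightest of them, had 5280.2 ± 512 for FL1 against 5309.7 ± 498 for DUKsi (log2 fold change -0.0084). Of 37 DNA replication genes 1 was lower, Mcm5 of the replicative helicase, at 673 ± 33.3 for FL1 against 849 ± 74.3 for DUKsi (log2 fold change -0.33 with an SE of 0.0722, limma adjusted p = 0.00938), and the median was -0.097. Mcm5 passed in 9 of 28 other settings (adjusted p from 0.000773 to 0.0872), with 0.00746 to 0.029 when single pools were left out. At an unadjusted p under 0.05 from limma 9 of the 37 genes were lower and 0 higher, against 10.6% and 9.92% of all genes.

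Among the markers of ovarian cell types, those of granulosa and luteal cells had several genes past the test and the other lists at most 1. These lists were chosen with earlier results of these data known. The paper already names Cdh2, Ccnd2, Inhbb and Nr5a2 as differing between the lines, and also Cyp11a1 and Ptgfr. The counts of granulosa and luteal markers are thus not independent of that choice. Of all genes 1.65% were lower and 2.08% higher at an adjusted p under 0.01 from limma. Of 14 granulosa cell markers 4 were lower and 0 higher, with a median of -0.26, and their summed signal ran from 46925 to 53112 in FL1 and from 54999 to 63438 in DUKsi. The 4 were the adhesion gene Cdh2 (-1.46), the G1 cyclin gene Ccnd2 (-0.74), the nuclear receptor gene Nr5a1 (-0.53) and the activin subunit gene Inhba (-0.52). Of 10 luteal cell markers 5 were higher and 0 lower, with a median of 1.12, and their summed signal ran from 71846 to 84957 in FL1 and from 36855 to 56603 in DUKsi. They were Ptgfr (1.82), Hsd17b7 (1.78), Cyp11a1 (0.98), Idh1 (0.95) and Fdx1 (0.48). Leaving out single pools kept all of these genes past the test except Ptgfr, which passed in 8 of 12 cases, and Fdx1, which passed in 4. With all probe sets of a gene averaged the value of Nr5a1 turned positive (adjusted p = 0.824), and with the first array of each pool alone it no longer passed. At an unadjusted p under 0.05 from limma 10 granulosa cell markers were lower and 1 higher, while 10 luteal cell markers were higher and 0 lower. The shares of all genes at that threshold were 10.6% lower and 9.92% higher.

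Of 15 oocyte markers 1 was lower, the zona pellucida gene Zp3 (-0.49), with a median of -0.26 and a summed signal from 8908 to 11802 in FL1 and from 11812 to 14030.3 in DUKsi. At an unadjusted p under 0.05 from limma 7 of the oocyte markers were lower and 0 higher, against 10.6% and 9.92% of all genes. The summed signal of the mitosis genes ran from 29237 to 33990.3 in FL1 and from 33689 to 42108 in DUKsi. Without Pttg1 it overlapped more, from 25571 to 30034.5 in FL1 and from 26401 to 33226 in DUKsi. Theca and stromal (11 markers, Pdgfra higher at 0.37), endothelial (13, Pecam1 higher at 0.58) and macrophage lists (15, Fcer1g higher at 1.20) had 1 gene each past the test, and when single pools were left out Pdgfra passed in 4 of 12 cases, Pecam1 in 3 and Fcer1g in 12. The theca and stromal markers had a median of -0.021 (0.067 with the arrays scaled to the same median), and at an unadjusted p under 0.05 from limma 4 were lower and 1 higher, with the androgen synthesis gene Cyp17a1 at -0.62 (adjusted p = 0.0985). The endothelial and macrophage medians were 0.20 and 0.29. At that unadjusted threshold 1 endothelial marker was lower and 5 were higher, and 1 macrophage marker was lower and 6 were higher. None of the granulosa and luteal markers and 1 of the oocyte markers, Ddx4, was dim. Of 12 lymphocyte markers 0 passed in limma or the methods' t-test (1 higher and 0 lower at an unadjusted p under 0.05 from limma), with a median of 0.079 and 4 values negative, among them the brightest, Ighm, at -0.28. The part of the cell make-up in the mitosis gene values was not tested.

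**Figure D5:**
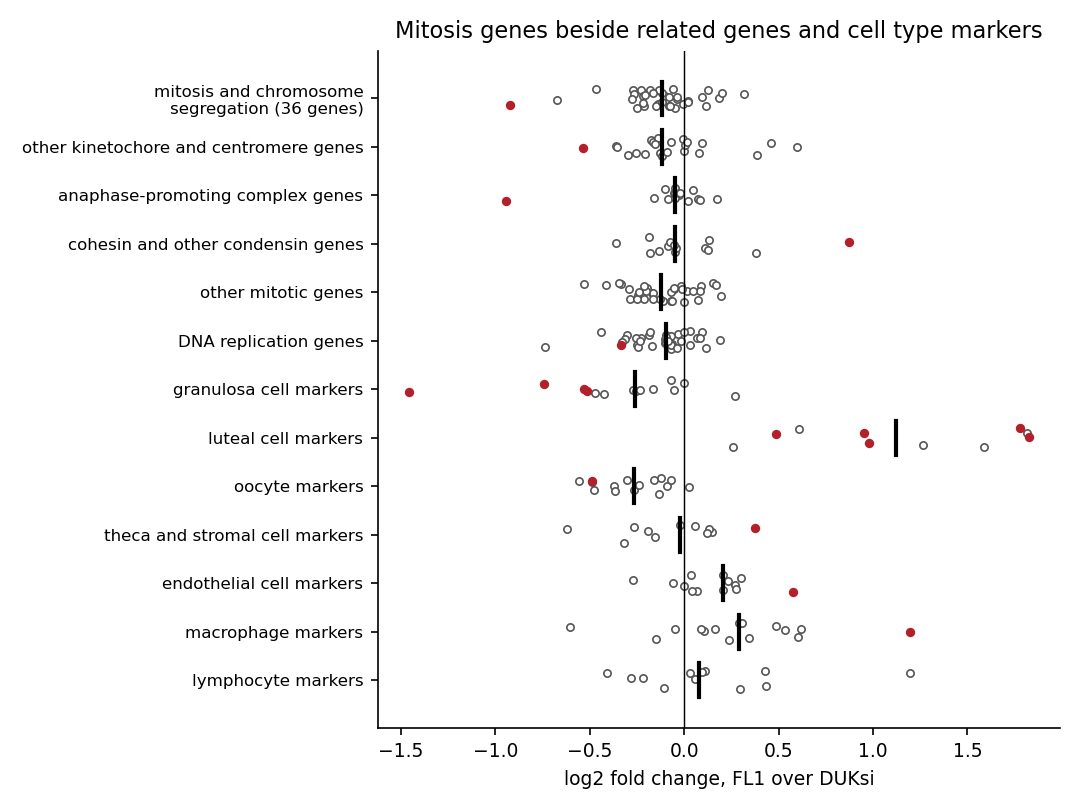
Log2 fold change (FL1 over DUKsi, x axis) of the 36 mitosis genes and of the measured genes of 12 other lists (y axis); circles are genes by their brightest probe set, red at an adjusted p under 0.01, and black bars are medians. The medians of the mitotic and replication lists lie between -0.12 and -0.046 (those of the anaphase-promoting complex and of cohesin at 0.041 and 0.038 with the arrays scaled to the same median), that of granulosa cell markers at -0.26 and that of luteal cell markers at 1.12.

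By the beta-actin control RNA integrity also differed between the lines. The 3' to 5' ratio of the beta-actin control had a mean of 1.67 ± 0.423 for FL1 and of 1.27 ± 0.0522 for DUKsi over 6 pools each (exact permutation p = 0.00216, two-sided, the smallest value possible with 6 against 6). The Gapdh ratio was 1.53 ± 0.42 and 1.28 ± 0.146 (exact permutation test, p = 0.203). The median signal of a pool was 221 ± 7.98 for FL1 and 235 ± 4.95 for DUKsi (exact permutation test, p = 0.0108). With the actin ratio as a covariate, chosen after seeing the data, the log2 fold change of Pttg1 was -1.02 (limma adjusted p = 6.83e-06), and Kif22 passed at -0.50 (adjusted p = 0.00932). Over all settings the adjusted p of Kif22 ran from 0.00932 to 0.626 and that of Pttg1 from 2.49e-12 to 0.0144. The lowest Pttg1 value came from the random pool effect over the 24 single arrays. That fit took 0.337 as the correlation of arrays of a pool, although for Pttg1 these differed by a median of only 0.035 log2. It can thus count arrays of a pool as more separate than they were, and its p-value can be too small. Without FL1 pool 3, which had the highest actin ratio, 2.45, and DUKsi pool 4, also chosen after seeing the data, Pttg1 had -0.95 (adjusted p = 1.27e-05).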

How the data were processed

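Whole ovaries of lines FL1 and DUKsi were profiled on 24 MOE 430A arrays, as 6 pools per line with 2 arrays per pool. The deposited intensity values are MAS5 signals in linear units, which the authors had brought to the same average on each array. Precision is limited by the number of pools, and p-values set the line difference against the spread between pools, not between animals. The pools were composed to have a similar mean size of the litters of origin. By qPCR the paper found more variation between individuals than between pools. Signals of both arrays of a pool were averaged, transformed to log2 and compared between lines with the linear model and moderated statistics of limma 3.58.1 in R 4.3.3, using a mean-variance trend. The fit covered 22626 probe sets and left out 64 control probe sets. Adjusted p-values are from limma with Benjamini-Hochberg adjustment over all of them, with a threshold of 0.01.

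Gene names came from the platform annotation, in which 20380 probe sets had 1 gene, 691 several and 1555 none. Of those with several, 1 listed Foxm1 and was not used. Values in every pool were given for members that passed or, as fewer than 8 passed, for the 8 with the lowest p. Of each comparison list up to 4 genes that passed were named, or the brightest where none passed, and Fdx1, Ddx4, Cenpk and Cyp17a1 were added after their values were seen. The members and lists were chosen with earlier results of these data known. The fit was tested on simulated signals with independent noise, in which only probe sets above the median signal were changed. It thus did not cover dim genes or genes that move together within a pool. Alternatives varied the arrays, normalization, low values, test, threshold and probe set, used a replicate block and left out each pool. Chosen after seeing the data were the omission of 2 pools together and the actin ratio as a covariate.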

Additional observations from a re-analysis of the deposited data

Results flagged for a closer look

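In 4 of the 72 sets of 6 pools (36 members in 2 lines) the highest or lowest pool was far from the other 5 of its line by Dixon's ratio, and chance alone flags about 1 in 20 sets. Smc2 had 733.9 in DUKsi pool 4, with the next pool at 928, and Birc5 had 751.8 in the same pool, with the next at 912. Cdk1 had 1634 in FL1 pool 2, against 1746 for the next. Bub1 had 527 in FL1 pool 4, against 406 for the next. The low pools are those in which most members were low.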

How the results depend on the processing

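Pttg1 was the only member lower in FL1 in the reported fit, and 1 member was also lower with single arrays, the mean of log2 signals, quantile or median scaling, the dimmest 40% of probe sets left out, a ratio of at least 1.5 required and all probe sets of each gene averaged. In the last setting this was Cenpe, not Pttg1 (-0.32). The count was 2 with the pool as a random block, a constant added before log2, both forms of the methods' t-test, limma in robust mode or lacking the trend, and an adjusted p under 0.05, each adding Cenpe. It was also 2 without FL1 pool 3 and DUKsi pool 4, adding Smc2, and with the actin ratio as covariate, adding Kif22, both chosen after seeing the data. Leaving out each pool in turn gave 1 to 2, with 2 only without DUKsi pool 4, where Smc2 was added. The count of members higher in FL1 was 0 in every setting run. The members' median ran from -0.14 to -0.028 over all settings. The same pool numbers did not pair the lines, since their correlations ran from -0.26 to 0.17, and the replicate block gave 1 lower and 0 higher, with Cenpe at an adjusted p of 0.0402 from limma. The cause of these changes was not tested. Cenpe gave no value with the dimmest 40% left out.

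Of 1078 results for single members 1027 kept direction and side of the threshold, 11 passed in addition, 1 no longer passed (Pttg1 as above) and 39, in 15 genes that did not pass in any setting, changed sign. With arrays scaled to the same median the sign turned for Ccna2 (0.083), Cdk1 (0.053), Aurka (0.00595), Bub1b (0.042), Kif20a (0.0092), Kif23 (0.015), Prc1 (0.0302) and Smc4 (0.047), and with quantile normalization for Bub3 (-0.044) and Kif20a (0.0065). With the mean over all probe sets it turned for Bub1 (0.11), Bub3 (-0.19), Incenp (-0.053), Nusap1 (-0.24) and Hmmr (-0.12). With the actin ratio it turned for Ccna2 (0.068), Ube2c (0.076), Incenp (-0.055), Hmmr (-0.18), Kif20a (0.092) and Prc1 (0.014). With first arrays alone it turned for Ccna2 (0.0039) and Kif23 (0.0014), and with second arrays for Bub3 (-0.028) and Cenpa (-0.067). Without FL1 pool 3 and DUKsi pool 4 it turned for Ccna2 (0.0056), Bub3 (-0.00405) and Incenp (-0.021). Leaving out single pools turned Ccna2 (range -0.038 to 0.0201), Incenp (-0.016 to 0.053), Bub3 (-0.0026 to 0.046) and Prc1 (-0.13 to 0.0036) for at least 1 pool.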
